A study of Macaca mulatta with 27 samples.

Results

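The Notch genes described here are 3 receptors (NOTCH1, NOTCH2, and NOTCH3), 3 ligands (DLL1, DLL3, and JAG1), and 4 transcription factors of the HES/HEY family (HES1, HES5, HEY1, and HEY2). They were chosen by symbol from the 17967 gene symbols of the count tables, and all 10 were found. RNA of rhesus monkey embryonic stem cells (ESCs) was sequenced in 27 libraries, 6 of primed cells and 3 of cells reprogrammed toward the naive state with each of 7 protocols, named TL2i, TL-CDK8i, LCDM (EPS), NHSM-v, t2iLGöY, E-NHSM, and 4i/L/b. Every group comes from the same clonal line, LyonES-tGFP-(S3), which carries tauGFP under the ubiquitous CAG promoter and a lentiviral STAT3-ER T2, a STAT3 that tamoxifen activates, and the primed controls carry both transgenes too. TL2i cells received tamoxifen and LIF with inhibitors of MEK and GSK3β, and TL-CDK8i cells received tamoxifen and LIF with an inhibitor of CDK8 and CDK19 (CNIO-47799) in their place. The other protocols are published mixtures of cytokines and inhibitors, given in the labels by name only. Primed cells were passaged mechanically in clumps and all reprogrammed cells as single cells, so the effect of a protocol and that of passaging cannot be told apart. Nothing in the labels says that libraries of one group came from separate cultures, and p-values then measure only the spread between these libraries.

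Notch is a signaling pathway between touching cells. A Delta or Jagged ligand on one cell binds a NOTCH receptor on its neighbor, the receptor is cut by ADAM proteases and then by gamma-secretase, and the freed intracellular domain joins RBPJ in the nucleus to turn on HES and HEY genes, whose products repress other genes. In the developing nervous system, cells that begin to make neurons raise Delta ligands under proneural factors, and the HES genes of their neighbors hold those neighbors back as progenitors. DLL3 differs from the other ligands in that it acts mainly inside the cell that makes it, as an inhibitor of the pathway.

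The libraries held 7111886 to 20760914 counts on genes, with a median of 12201171, and 3 counts in a library correspond to 0.141 to 0.429 CPM, the counts scaled to library size by TMM factors. Pluripotency genes checked the labelled cell type. The summed level of 6 of them (POU5F1, NANOG, SOX2, LIN28A, DPPA4, and TDGF1) was 2690 to 2900 CPM in primed, 3060 to 3180 CPM in E-NHSM, and 1030 to 1470 CPM in TL-CDK8i libraries. It lay between 100 and 403 CPM in the libraries of the other 5 protocols, in which NANOG averaged at most 0.317 CPM and was at 0 counts in every NHSM-v and t2iLGöY library. POU5F1 averaged 1180 CPM in primed libraries and 0.29 to 6.44 CPM in these 5 groups. Most of their sum was SOX2, a gene of neural progenitors too (329 CPM in LCDM (EPS)), or, in TL2i, LIN28A (271 CPM). Those 5 groups are called by their protocol below, not by a cell type. The primed columns carry the letters J and K, with 3 libraries each, and the 7 comparisons with primed cells share these 6 libraries. The labels arrange the primed samples in separate sets, and how the lettered columns match these sets is not given. The main fits took the 6 libraries as replicates of a single group, without a term for the letter.

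Each protocol was compared with primed cells to find how the Notch genes moved on conversion. DLL1, a Delta ligand, was higher in all 7 protocols, by 2.08 to 7.58 on the log2 scale. In TL-CDK8i and NHSM-v it passed the filter on low counts only through the libraries of the protocol. NOTCH2 was higher in 6 protocols and NOTCH3 and JAG1 in 5, and each had its largest increase in NHSM-v or 4i/L/b. DLL3 and HES5 were highest in LCDM (EPS) and t2iLGöY. The targets went in both directions: HES1 was higher in 2 protocols and lower in 3, HEY2 was higher in 3 and lower in 2, and HEY1 passed the test in none. Where HEY2 was lower, it passed the filter on low counts only through the primed libraries. In these bulk libraries, fewer cells of a type and less RNA per cell cannot be told apart.

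By edgeR's quasi-likelihood test with Benjamini-Hochberg adjustment over all genes tested, at a threshold of 0.05, 2 of the 9 members tested in E-NHSM cells were higher and 4 lower, against 11.1% and 15.1% of all genes. TL-CDK8i cells had 4 higher and 1 lower of 9, against 22.3% and 23.8% of all genes. In TL2i cells 7 of 9 were higher and 0 lower, where 25.6% and 25.2% of all genes were called. NHSM-v cells had 6 higher and 1 lower of 9, beside 28% and 30.6% of all genes, and 4i/L/b cells had 5 higher and 1 lower of 9, beside 26.6% and 29%. No tested member had a log2 fold change below 0 in TL2i or t2iLGöY cells, by edgeR or by DESeq2. In t2iLGöY cells 7 of 10 were higher and 0 lower, against 27.1% and 27.2% of all genes, and in LCDM (EPS) cells 7 of 10 were higher and 2 lower, against 28.2% and 28.9%. The tenth gene in these 2 protocols is HES5, which had 0 counts in primed cells and could be tested only where it was high, and without it 6 of 9 were higher in each. DLL1 in TL-CDK8i and NHSM-v passed the filter on low counts only through the libraries of the protocol. HEY2 was the only member lower in NHSM-v and was among the lower ones in LCDM (EPS). In both, HEY2 passed the filter only through the primed libraries. The median log2 fold change of the members tested was -0.42 in E-NHSM, 0.27 in TL-CDK8i, and 0.72 to 1.46 in the other 5 protocols (without HES5, 1.21 in t2iLGöY and 0.72 in LCDM (EPS)), while that of all genes tested was between -0.02 and 0.07 in the 7 comparisons. The members are few, and a large share of all genes passed the test too, so the counts are given as a description.

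**Figure D1:**
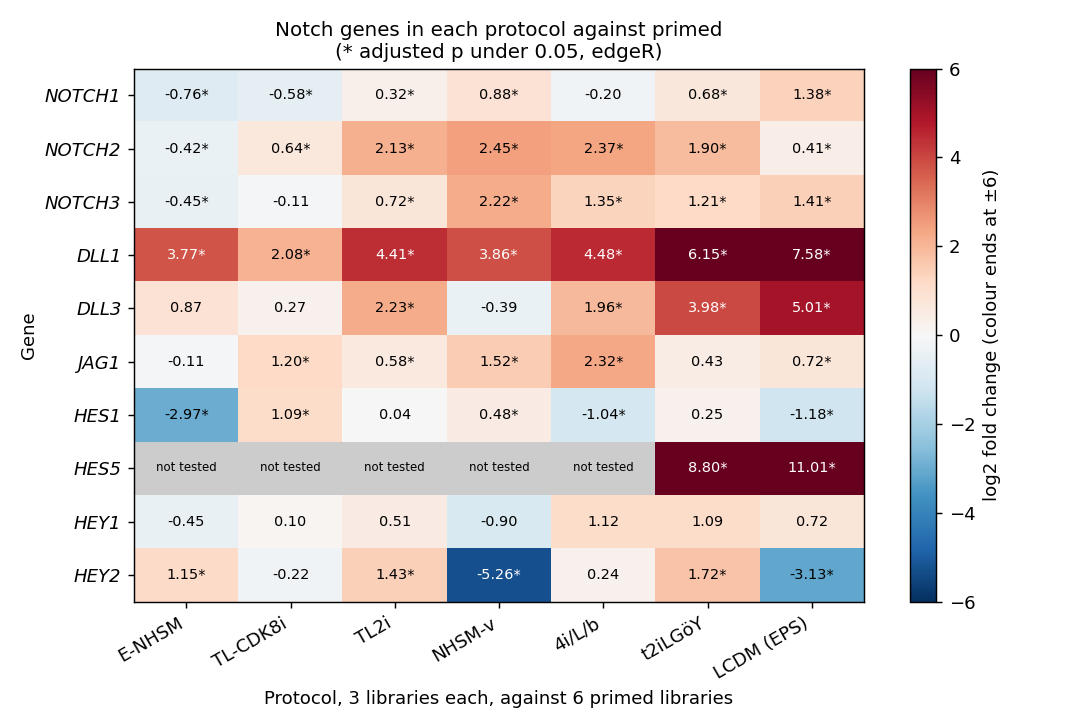
Log2 fold change of the 10 Notch genes (rows) in each of the 7 protocols (columns, 3 libraries each) against 6 primed libraries, with an asterisk where the adjusted p was under 0.05 and grey where the gene had too few counts to be tested. DLL1 is raised across its whole row, from 2.08 in TL-CDK8i to 7.58 in LCDM (EPS), whereas HES1 and HEY2 have both raised and lowered cells.

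NOTCH1, the receptor mutated in T-cell leukemia and needed by neural progenitors, was higher in 4 protocols and lower in 2. Its level in the 6 primed libraries had a lowest value of 110, a median of 150, and a highest value of 171 CPM. LCDM (EPS) libraries held 367, 372, and 399 CPM, NHSM-v libraries 263, 269, and 290 CPM, and t2iLGöY libraries 244, 213, and 232 CPM. All 9 of these libraries lay above every primed one, and the log2 fold changes were 1.38 ± 0.11 (SE; adjusted p = 8.6e-08), 0.88 ± 0.11 (adjusted p = 5.8e-06), and 0.68 ± 0.12 (adjusted p = 0.00016). NOTCH1 was lower in E-NHSM cells, whose libraries held 88.7, 87.6, and 83.5 CPM, with a log2 fold change of -0.76 ± 0.12 (adjusted p = 0.00013). It was also lower in TL-CDK8i cells (-0.58 ± 0.13, adjusted p = 0.0023), whose highest library, at 111 CPM, just overlapped the lowest primed one. In TL2i cells, with 159, 199, and 192 CPM, the increase of 0.32 ± 0.12 had an adjusted p of 0.0437. That call was lost when any one of primed libraries J1, K1, K2, or K3 or TL2i library 2 or 3 was left out, with adjusted p values of 0.0564 to 0.179 for values of 0.26 to 0.33, and against the primed libraries of letter J alone (0.33, adjusted p = 0.118). The 4i/L/b libraries, with 131, 140, and 123 CPM, overlapped the primed ones (-0.2 ± 0.12, adjusted p = 0.173), and without primed library J3 the value of -0.24 passed the test (adjusted p = 0.0282).

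NOTCH2 had the largest log2 fold change of the receptors in TL-CDK8i, TL2i, NHSM-v, 4i/L/b, and t2iLGöY cells, and the smallest in LCDM (EPS) cells. The primed libraries ranged from 101 to 151 CPM with a median of 134 CPM, and the 3 of letter J, at 101 to 119 CPM, lay below the 3 of letter K, at 148 to 151 CPM. NHSM-v libraries held 709, 746, and 743 CPM, 4i/L/b libraries 656, 754, and 688 CPM, TL2i libraries 522, 650, and 560 CPM, and t2iLGöY libraries 514, 451, and 478 CPM. All 12 of these libraries lay above every primed one, and the mean was 5.58-fold that of primed cells in NHSM-v, 5.32-fold in 4i/L/b, 4.4-fold in TL2i, and 3.66-fold in t2iLGöY. The log2 fold changes were 2.45 ± 0.11, 2.37 ± 0.12, 2.13 ± 0.12, and 1.9 ± 0.12, with adjusted p values from 1e-10 to 7.2e-09. A smaller increase was found in TL-CDK8i (237, 207, and 191 CPM, 0.64 ± 0.13, adjusted p = 0.00099) and LCDM (EPS) libraries (180, 172, and 171 CPM, 0.41 ± 0.12, adjusted p = 0.0115). With only the J libraries as the primed group the value in LCDM (EPS) cells was 0.64, and with only the K libraries it was 0.22. E-NHSM was the exception, with 105, 94.6, and 95.8 CPM and a decrease of 0.42 ± 0.13 (adjusted p = 0.021). This decrease did not pass the test against letter J alone (-0.2, adjusted p = 0.218), nor without E-NHSM library 2 (-0.39, adjusted p = 0.0984) or 3 (-0.4, adjusted p = 0.0944).

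NOTCH3, a receptor best known from vascular smooth muscle and pericytes, had the smallest spread relative to its mean of the members counted in primed cells, with 190 to 224 CPM and a median of 215 CPM. NHSM-v libraries held 1070, 940, and 1020 CPM, a log2 fold change of 2.22 ± 0.07 (adjusted p = 2.1e-12). LCDM (EPS) libraries held 539, 598, and 560 CPM (1.41 ± 0.07, adjusted p = 8.8e-10), 4i/L/b libraries 536, 605, and 528 CPM (1.35 ± 0.08, adjusted p = 5e-09), and t2iLGöY libraries 495, 484, and 471 CPM (1.21 ± 0.08, adjusted p = 4.4e-09). TL2i libraries were lower than these but above all primed ones, at 313, 381, and 356 CPM (0.72 ± 0.09, adjusted p = 1.1e-05). The 3 TL-CDK8i libraries, at 201 to 210 CPM, lay within the primed range (-0.11 ± 0.08, adjusted p = 0.313). E-NHSM libraries, at 144 to 169 CPM, lay below it (-0.45 ± 0.09, adjusted p = 0.0012). In E-NHSM cells all 3 receptors were thus lower than in primed cells, and in NHSM-v, TL2i, t2iLGöY, and LCDM (EPS) all 3 were higher.

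**Figure D2:**
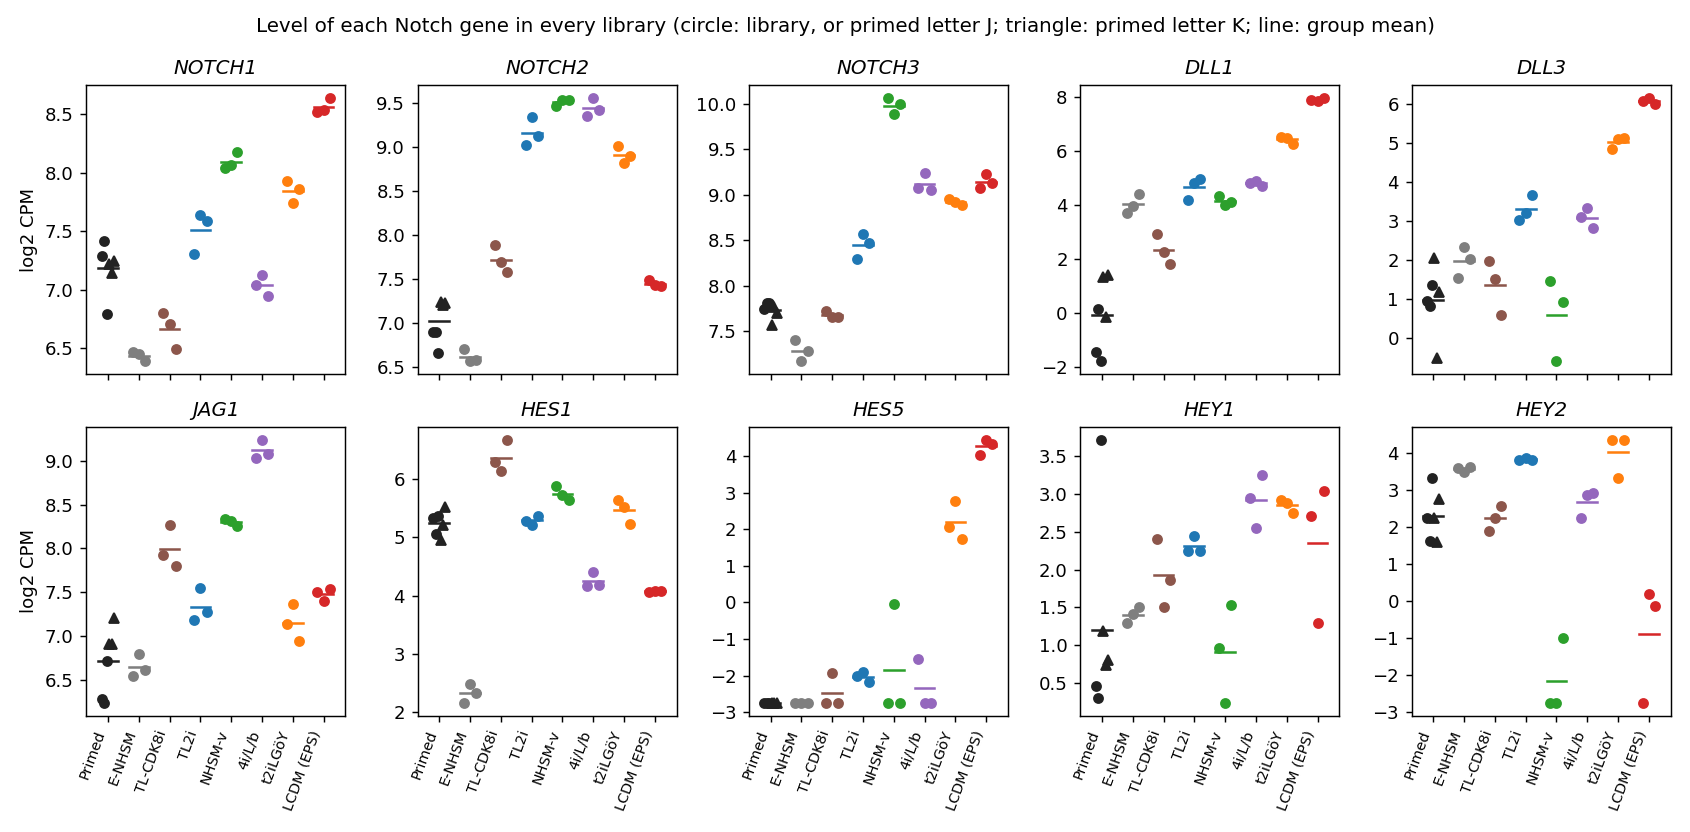
Level of each Notch gene as log2 CPM (vertical axis, own scale per panel, prior count of 2) in the 27 libraries, grouped by protocol along the horizontal axis, with a line at each group mean; primed libraries of letter J are circles and of letter K triangles. For DLL1 every library of the 7 protocols lies above every primed library, for HES5 only the t2iLGöY and LCDM (EPS) groups stand clear of the floor, and for HEY1 primed library J3 stands apart at 13 CPM.

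DLL1, the main Delta ligand of neural progenitors and of the presomitic mesoderm, had the largest range of the members with counts in every library. The primed libraries held 0.143 to 2.48 CPM with a median of 0.866 CPM, that is 1 to 28 counts, with 1 to 9 counts in the libraries of letter J and 11 to 28 in those of letter K. LCDM (EPS) libraries held 235, 234, and 250 CPM, and t2iLGöY libraries 92.5, 89.4, and 77.8 CPM. The means of these groups were 206-fold and 74.5-fold that of primed cells, with log2 fold changes of 7.58 ± 0.34 (adjusted p = 2.9e-10) and 6.15 ± 0.43 (adjusted p = 1.7e-08).

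A middle group for DLL1 was formed by 4i/L/b (28, 29.7, and 26.3 CPM), TL2i (18.3, 28.2, and 30.9 CPM), NHSM-v (20.3, 16, and 17.1 CPM), and E-NHSM (13, 15.5, and 21 CPM). Neighbors in this order overlapped. Their log2 fold changes were 4.48 ± 0.55, 4.41 ± 0.56, 3.86 ± 0.62, and 3.77 ± 0.58, with adjusted p values from 1.1e-05 to 8.6e-05. E-NHSM, in which the 3 receptors were lower and the summed level of the pluripotency genes lay above the primed range, had a DLL1 mean 14.2-fold that of primed cells. TL-CDK8i libraries had the smallest increase, at 7.57, 4.68, and 3.38 CPM. All 3 lay above the primed range, and the log2 fold change was 2.08 ± 0.82 (adjusted p = 0.0496). This call was lost without primed library J1 (1.89, adjusted p = 0.0675), J2 (2.03, adjusted p = 0.0732), or K2 (1.98, adjusted p = 0.0816), without TL-CDK8i library 1 (1.73, adjusted p = 0.225), 2 (2.16, adjusted p = 0.119), or 3 (2.35, adjusted p = 0.0816), and against letter K alone (1.42, adjusted p = 0.0689). The choice of primed letter moved the size in the other protocols but no call: LCDM (EPS) gave 8.97 against J and 7.04 against K, and E-NHSM gave 5.12 and 3.15. In TL-CDK8i and NHSM-v, DLL1 passed the filter on low counts only through the libraries of those protocols, so the levels there are given as a description.

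DLL3, the inhibitory ligand, was low in primed cells, at 0.553 to 4.02 CPM with a median of 1.96 CPM. LCDM (EPS) libraries held 67.2, 70.2, and 63.4 CPM, and t2iLGöY libraries 28.4, 33.9, and 34.9 CPM, 32-fold and 15.5-fold the primed mean. The log2 fold changes were 5.01 ± 0.35 (adjusted p = 2.7e-08) and 3.98 ± 0.41 (adjusted p = 1.1e-06). TL2i (8.04, 9.09, and 12.4 CPM) and 4i/L/b libraries (8.36, 9.85, and 6.93 CPM) also lay above every primed one, with 2.23 ± 0.51 (adjusted p = 0.0025) and 1.96 ± 0.55 (adjusted p = 0.0077). The other 3 protocols overlapped primed cells, with 0.87 ± 0.72 in E-NHSM (adjusted p = 0.42), 0.27 ± 0.74 in TL-CDK8i (adjusted p = 0.799), and -0.39 ± 0.88 in NHSM-v (adjusted p = 0.732). NHSM-v had thus a raised DLL1 beside a DLL3 of 0.514 to 2.59 CPM, and the same held for E-NHSM at 2.73 to 4.84 CPM.

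Proneural and neuronal genes were highest in the same 2 groups as DLL1, DLL3, and HES5, and followed them less closely elsewhere. The summed level of 5 proneural factors (NEUROG1, NEUROG2, NEUROD1, NEUROD4, and ATOH1) was 0.941 CPM in 1 primed library and 0 in the other 5, 89.5 to 115 CPM in t2iLGöY, and 83.8 to 100 CPM in LCDM (EPS) libraries. Of the 5 factors, 5 in t2iLGöY and 4 in LCDM (EPS) averaged over 1 CPM, led by NEUROD4 at 49.5 ± 7.72 and 45.1 ± 8.28 CPM (SD, n = 3). In TL2i (4.46 to 6.58 CPM), NHSM-v (18.2 to 29 CPM), and 4i/L/b libraries (4.72 to 6.44 CPM) the sum was in between. It was 0.753 to 1.6 CPM in E-NHSM libraries, where NEUROG2 and NEUROD1 were at 0, and 0.193 to 1.49 CPM in TL-CDK8i libraries, where ATOH1 was at 0, although DLL1 was raised in both. The sum of 6 neuronal genes (DCX, TUBB3, STMN2, ELAVL3, ELAVL4, and MAP2) was 64.4 to 122 CPM in primed, 97.7 to 118 CPM in E-NHSM, 195 to 263 CPM in TL-CDK8i, 503 to 535 CPM in TL2i, and 628 to 710 CPM in 4i/L/b libraries. It was 1060 to 1110 CPM in NHSM-v libraries, in which DLL3 overlapped primed cells and HES5 had 0, 8, and 0 counts, 2120 to 2310 CPM in t2iLGöY, and 3270 to 3630 CPM in LCDM (EPS) libraries. The part of cells with proneural and neuronal genes in the levels of DLL1, DLL3, and HES5 was not tested. In E-NHSM the DLL1 increase stood beside a neuronal sum within the primed range. MAP2 made up most of that sum, at a mean of 74.4 CPM in primed and 90.6 CPM in E-NHSM libraries. Single genes of it differed: DCX was at 0 to 4.53 CPM in primed and 6.78 to 11.9 CPM in E-NHSM libraries. STMN2 was at 5.46 to 23.3 CPM in primed and 0.538 to 1.18 CPM in E-NHSM libraries. A list of 5 presomitic mesoderm genes, the other tissue in which DLL1 and DLL3 are prominent, summed to at most 10 CPM in all 27 libraries, and its member MSGN1 was at 0 in every group.

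**Figure D3:**
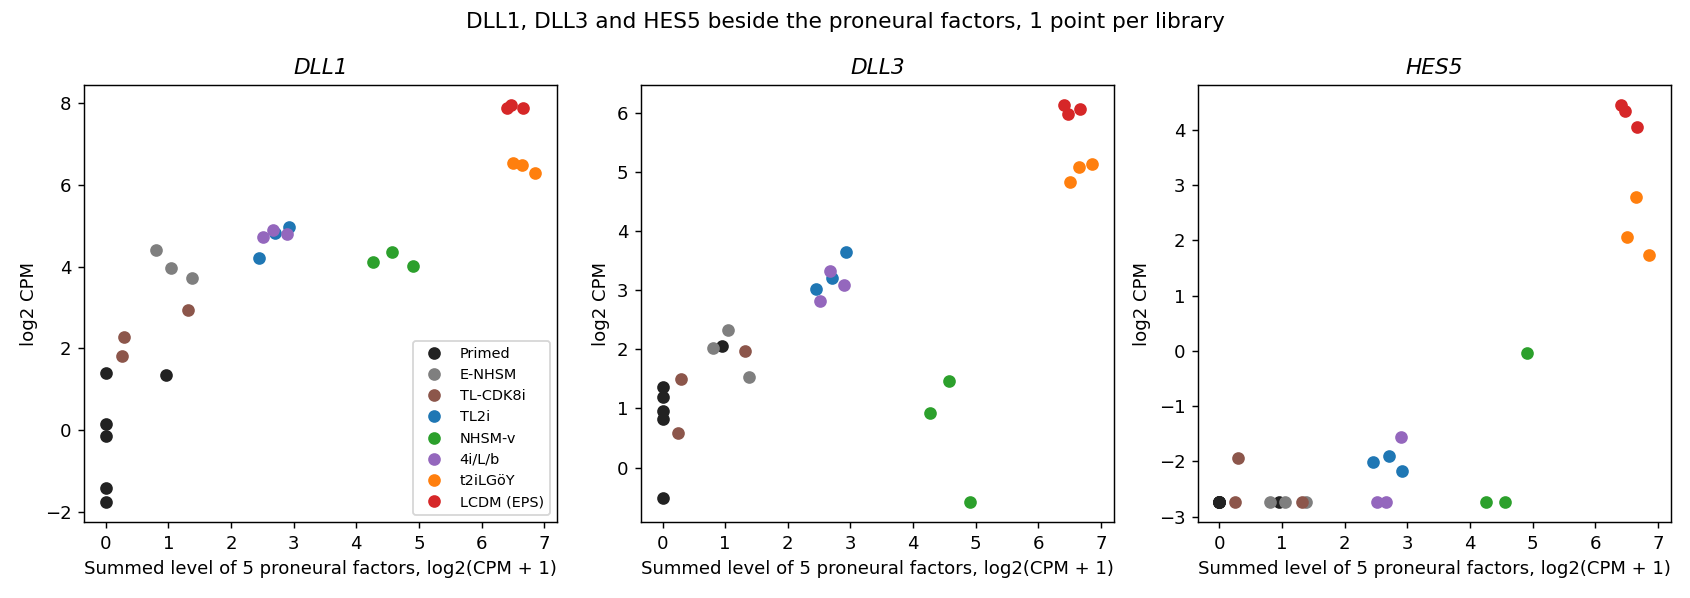
Level of DLL1, DLL3, and HES5 as log2 CPM (vertical axes) against the summed level of 5 proneural factors as log2(CPM + 1) (horizontal axes), 1 point per library, colored by group. The t2iLGöY and LCDM (EPS) libraries lie at the upper right in all 3 panels, the E-NHSM libraries have a DLL1 of 13 to 21 CPM at a proneural sum of 0.753 to 1.6 CPM, and the NHSM-v libraries have a proneural sum of 18.2 to 29 CPM at a DLL3 of 0.514 to 2.59 CPM.

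JAG1, the Jagged ligand used by many epithelial and mesenchymal tissues, followed another order of protocols than the Delta ligands. Primed libraries held 75.4 to 148 CPM with a median of 113 CPM, and those of letter J, at 75.4 to 106 CPM, lay below those of letter K, at 120 to 148 CPM. 4i/L/b libraries held 523, 604, and 542 CPM, 5.16-fold the primed mean (2.32 ± 0.17, adjusted p = 7.5e-08). NHSM-v (322, 317, and 306 CPM, 1.52 ± 0.17, adjusted p = 1.5e-06) and TL-CDK8i libraries (242, 309, and 222 CPM, 1.2 ± 0.18, adjusted p = 8.5e-05) followed. LCDM (EPS), first for DLL1 and DLL3, had 181, 168, and 185 CPM (0.72 ± 0.18, adjusted p = 0.0029).

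The TL2i libraries, at 145, 187, and 155 CPM of JAG1, overlapped the highest primed library (0.58 ± 0.18, adjusted p = 0.0162), and the call was lost without TL2i library 2 (0.47, adjusted p = 0.0948). t2iLGöY libraries, at 141, 165, and 123 CPM, were on the edge of the threshold (0.43 ± 0.18, adjusted p = 0.0583). The value passed the test without primed library K3 (0.51, adjusted p = 0.0214), with upper-quartile normalization (0.46, adjusted p = 0.0434), with DESeq2 (0.47, adjusted p = 0.0325), with at least 10 counts required in every library (0.49, adjusted p = 0.0213), with all 8 groups in one fit (0.41, adjusted p = 0.0149), and against letter J alone (0.76, adjusted p = 0.0021). In E-NHSM cells (93.6, 111, and 97.2 CPM) the value of -0.11 ± 0.17 (adjusted p = 0.703) was 0.22 against the primed columns of letter J and -0.36 against those of letter K, and the second passed the test (adjusted p = 0.0131). Fibroblast genes moved with JAG1 in part: the summed level of COL1A1, COL1A2, COL3A1, DCN, LUM, and POSTN was 1040 to 2310 CPM in primed, 11500 to 15000 CPM in 4i/L/b, 8590 to 11100 CPM in TL-CDK8i, and 7600 to 8140 CPM in NHSM-v libraries, the 3 protocols with the most JAG1. It was 377 to 416 CPM in E-NHSM, 764 to 994 CPM in LCDM (EPS), 2890 to 5660 CPM in TL2i, and 3360 to 3980 CPM in t2iLGöY libraries. COL1A1 and COL1A2 made up most of the sum in every group. DCN and LUM were at 0 counts in primed, E-NHSM, and t2iLGöY libraries. They averaged 41.3 and 46.7 CPM in 4i/L/b, the group with the most JAG1, but did not follow JAG1 elsewhere. Their means were 4.72 and 7.19 CPM in TL-CDK8i, 1.8 and 9.34 CPM in NHSM-v, 5.73 and 11.2 CPM in TL2i, and 7.12 and 3.4 CPM in LCDM (EPS). The part of cells with fibroblast genes in the level of JAG1 was not tested.

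HES1, a repressor that Notch and other signals turn on, had 30.8 to 45.7 CPM in primed libraries with a median of 38.5 CPM. TL-CDK8i libraries held 77.9, 71.1, and 103 CPM, 2.21-fold the primed mean (1.09 ± 0.15, adjusted p = 4.3e-05), and were above all other libraries of the series. NHSM-v libraries, at 58.9, 53.1, and 49.8 CPM, also lay above the primed range (0.48 ± 0.15, adjusted p = 0.0148), a call that was lost without NHSM-v library 1 (0.44, adjusted p = 0.0639). E-NHSM libraries held 4.33, 5.45, and 4.84 CPM, 7.79-fold below primed cells (-2.97 ± 0.22, adjusted p = 1.3e-08). This was the largest fall among the members outside HEY2. LCDM (EPS) libraries, at 16.7, 16.8, and 16.8 CPM, and 4i/L/b libraries, at 17.9, 21.1, and 18.1 CPM, were also lower, with -1.18 ± 0.17 (adjusted p = 4.6e-05) and -1.04 ± 0.17 (adjusted p = 0.00015). In TL2i (0.04 ± 0.15, adjusted p = 0.851) and t2iLGöY cells (0.25 ± 0.17, adjusted p = 0.225) the libraries overlapped the primed ones. A sum of 5 trophoblast genes (GATA3, TFAP2A, KRT7, CDX2, and TP63) was high beside HES1 in TL-CDK8i libraries, and also where HES1 was not raised. It was 3.59 to 14.7 CPM in primed, 145 to 230 CPM in TL-CDK8i, and 172 to 189 CPM in LCDM (EPS) libraries, where HES1 was lower. It was 108 to 163 CPM in t2iLGöY, 100 to 105 CPM in TL2i, 20 to 24.8 CPM in NHSM-v, 7.88 to 11.3 CPM in 4i/L/b, and 2.96 to 4.19 CPM in E-NHSM libraries. Of the 5 genes, 3 averaged over 1 CPM in TL-CDK8i libraries and 3 in primed ones. In TL-CDK8i libraries KRT7 made up nearly all of the sum, at 162 ± 49.7 CPM (SD, n = 3) against 2.98 ± 1.21 CPM in primed libraries (SD, n = 6). In LCDM (EPS) and t2iLGöY libraries KRT7 and CDX2 were at 0, and TFAP2A, at 181 and 134 CPM, made up nearly all of the sum. TFAP2A, at 82 CPM, also made up most of it in TL2i libraries. The part of cells with trophoblast genes in the level of HES1 was not tested. LCDM (EPS) cells joined the highest NOTCH1, DLL1, DLL3, and HES5 of the 8 groups with a lowered HES1.

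HES5, the target most closely tied to Notch in neural progenitors, had 0 counts in all 6 primed and all 3 E-NHSM libraries. LCDM (EPS) libraries held 286, 461, and 368 counts (16.3, 21.7, and 19.9 CPM), and t2iLGöY libraries 59, 101, and 44 counts (4.02, 6.74, and 3.18 CPM). All 6 libraries lay above every other library of the series. With 3 counts per library taken as the floor of primed cells, the means were at least 63.8-fold higher in LCDM (EPS) and at least 15.3-fold higher in t2iLGöY. HES5 passed the filter on low counts only through these 2 groups, so the levels are given as a description, and in the other protocols it had too few counts to be tested. It had 1 to 2 counts in each TL2i library, at most 2 in TL-CDK8i and 4i/L/b libraries, and 0, 8, and 0 counts in the NHSM-v libraries, so a difference from primed cells was not detectable there at this depth. A list of 7 neural progenitor genes (PAX6, SOX1, NES, FABP7, LHX2, EMX2, and SOX3) summed to 2240 to 2570 CPM in primed, 3380 to 3450 CPM in LCDM (EPS), 1980 to 2240 CPM in t2iLGöY, and 1220 to 2650 CPM in the other libraries, but NES, an intermediate filament gene, made up most of every sum (2430 ± 127 CPM in primed libraries, SD, n = 6). Most of the other genes of the list stood higher beside HES5 than in primed libraries, though not only there. PAX6 averaged 3.45 CPM in primed, 155 CPM in t2iLGöY, and 66.5 CPM in LCDM (EPS) libraries, and SOX1 averaged 0.0424, 13.2, and 193 CPM. SOX3 averaged 4.11, 12.9, and 29.6 CPM, FABP7 1.49, 11.7, and 24.8 CPM, and LHX2 0.556, 28.1, and 3.7 CPM in the same order. EMX2 averaged 0.56 CPM in primed and 10.9 CPM in t2iLGöY and was at 0 in LCDM (EPS) libraries. SOX1 was also at 41.5 CPM in NHSM-v and 12.5 CPM in TL2i libraries, where HES5 had at most 8 counts. The same held for PAX6 at 23.3 CPM in NHSM-v libraries and for FABP7 at 15.7 CPM and SOX3 at 11.1 CPM in TL-CDK8i libraries. The part of neural progenitors in the level of HES5 was not tested.

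HEY1, a repressor of the heart and vessels that BMP signals also raise, passed the test in none of the 7 comparisons by edgeR, and in 4 of them 1 library decided this. Primed library J3 held 13 CPM (91 counts), whereas the other 5 primed libraries held 1.08 to 2.14 CPM. With all 6 primed libraries the log2 fold changes were 1.12 ± 0.75 in 4i/L/b (7.59, 5.71, and 9.34 CPM), 1.09 ± 0.77 in t2iLGöY (7.44, 7.2, and 6.57 CPM), 0.72 ± 0.81 in LCDM (EPS) (6.37, 2.31, and 8.07 CPM), and 0.51 ± 0.78 in TL2i (4.61, 5.3, and 4.6 CPM), with adjusted p values of 0.225 to 0.61. No protocol passed at an unadjusted p under 0.05 in edgeR either, and none passed in the 4 comparisons for which DESeq2 gave HEY1 an adjusted p (it gave none for E-NHSM, TL2i and t2iLGöY cells). Without J3 the 4 fold changes became 2.29 ± 0.45 (adjusted p = 7e-04), 2.23 ± 0.54 (adjusted p = 0.0028), 1.88 ± 0.56 (adjusted p = 0.0108), and 1.66 ± 0.49 (adjusted p = 0.0119), and all 4 passed the test. Against the primed columns of letter K only, the same 4 passed too, with values of 1.45 to 2.08, and against letter J, which holds J3, none of the 7 passed (-1.43 to 0.57, adjusted p of 0.254 to 0.971). In E-NHSM (2.31 to 2.69 CPM), TL-CDK8i (2.67 to 5.16 CPM), and NHSM-v cells (1.03 to 2.73 CPM) the value missed the test with J3 (adjusted p of 0.44 to 0.932) and without it (0.0918 to 0.792). The same library had the highest HEY2 of the primed ones.

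**Figure D4:**
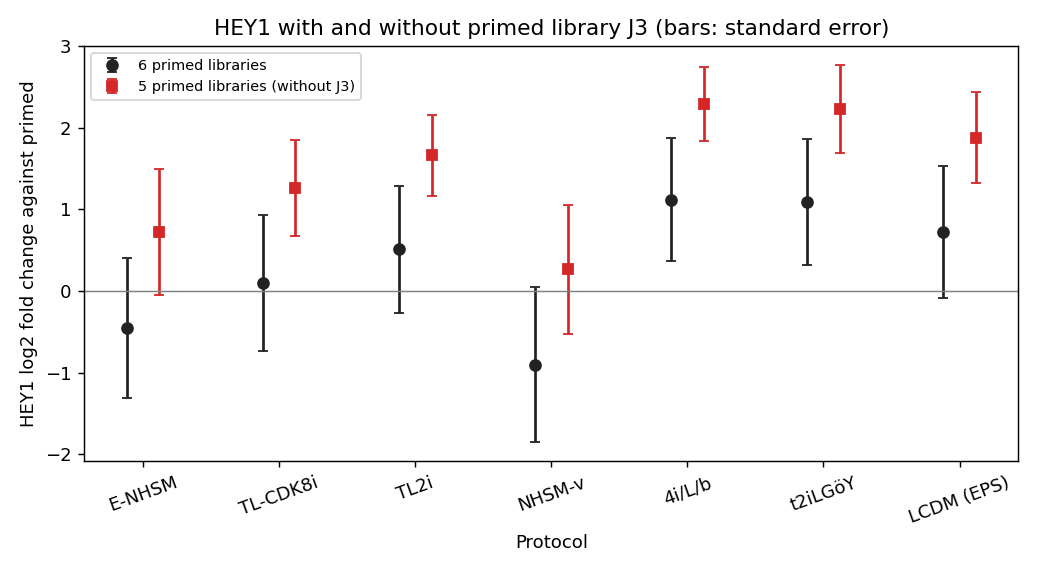
Log2 fold change of HEY1 (vertical axis) in each protocol against all 6 primed libraries (black circles) and against the 5 that remain without library J3 (red squares), with standard errors. Each estimate moves up by more than 1 without J3, from 1.12 to 2.29 in 4i/L/b and from -0.9 to 0.27 in NHSM-v.

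HEY2, a repressor of the heart and arteries, was lower in 2 protocols and higher in 3. Primed libraries held 2.83 to 9.86 CPM with a median of 4.6 CPM. NHSM-v libraries held 0, 0, and 4 counts, a mean of 0.117 CPM (-5.26 ± 1.08, adjusted p = 0.00067), and LCDM (EPS) libraries 0, 21, and 14 counts, a mean of 0.583 CPM (-3.13 ± 0.95, adjusted p = 0.012). All 6 libraries lay below every primed one. In these 2 comparisons HEY2 passed the filter on low counts only through the primed libraries, so the levels are given as a description. Without NHSM-v library 3, which held the 4 counts, the call stayed, and the fitted value of -8.73 then rested on 2 libraries at 0 and is no measure of size. HEY2 was higher in TL2i (13.9, 14.3, and 13.9 CPM, 1.43 ± 0.39, adjusted p = 0.0071) and t2iLGöY libraries (20.3, 9.81, and 20.2 CPM, 1.72 ± 0.43, adjusted p = 0.0033), of which the last group overlapped the highest primed library.

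In E-NHSM cells, with 11.9, 10.9, and 11.9 CPM of HEY2, the increase of 1.15 ± 0.4 had an adjusted p of 0.0425. This call was lost on leaving out any E-NHSM library (adjusted p of 0.102 to 0.132 for values of 1.13 to 1.2) or primed library J1, J2, K1, or K2 (0.0616 to 0.0749 for 1.03 to 1.12), and against letter J alone (1.01, adjusted p = 0.116). TL-CDK8i (3.56 to 5.8 CPM) and 4i/L/b libraries (4.61 to 7.41 CPM) overlapped the primed ones, at -0.22 ± 0.5 (adjusted p = 0.755) and 0.24 ± 0.47 (adjusted p = 0.688). Of the endothelial genes PECAM1, CDH5, KDR, TEK, and TIE1, the sum was 91.5 to 127 CPM in primed, 77.4 to 84 CPM in NHSM-v, 22.2 to 32.7 CPM in LCDM (EPS), and 10.4 to 16 CPM in t2iLGöY libraries, the group with the most HEY2. It was 150 to 200 CPM in TL-CDK8i, 49.4 to 58.6 CPM in 4i/L/b, 33.4 to 42.3 CPM in TL2i, and 22.6 to 29.9 CPM in E-NHSM libraries.

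The protocols were also compared with each other. A test of any difference between the 7 protocols called all 10 members, with adjusted p values from 6.4e-21 for NOTCH2 to 0.0013 for HEY1, but 90.9% of all genes passed the same test. HES5 passed the filter on low counts in this test only through LCDM (EPS) and t2iLGöY, so its call carries no weight. TL-CDK8i and TL2i share tamoxifen and LIF and differ in their kinase inhibitors. Between them, 6 of 9 members were lower in TL-CDK8i and 2 higher, against 33.3% and 31.5% of all genes. The 6 lower ones were NOTCH1 (-0.88 ± 0.11), NOTCH2 (-1.48 ± 0.11), NOTCH3 (-0.81 ± 0.1), DLL1 (-2.35 ± 0.27), DLL3 (-1.96 ± 0.33), and HEY2 (-1.62 ± 0.21), with adjusted p values from 1e-07 to 0.00014. JAG1 (0.64 ± 0.13, adjusted p = 0.00055) and HES1 (1.07 ± 0.13, adjusted p = 6.5e-06) were higher, and HEY1 (-0.39 ± 0.3, adjusted p = 0.274) did not pass the test. For all 8 called genes the 3 libraries of one protocol lay apart from the 3 of the other.

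NHSM-v and E-NHSM share part of their name, and 6 of the Notch genes differed between them. NOTCH1 (1.66 ± 0.07), NOTCH2 (2.89 ± 0.06), NOTCH3 (2.69 ± 0.07), JAG1 (1.64 ± 0.08), and HES1 (3.46 ± 0.19) were higher in NHSM-v, with adjusted p values from 3.1e-14 to 6e-10, and HEY2 was lower (-6.38 ± 0.72, adjusted p = 1.9e-06). These were 5 higher and 1 lower of 9, where 33.4% and 34.8% of all genes were called. HEY2 passed the filter on low counts here only through the E-NHSM libraries. The HES1 mean was 53.9 ± 4.58 CPM in NHSM-v and 4.88 ± 0.558 CPM in E-NHSM (SD, n = 3), 11.1-fold apart. DLL1 did not pass the test, with 17.8 ± 2.22 and 16.5 ± 4.08 CPM (0.1 ± 0.24, adjusted p = 0.713), and neither did DLL3 (-1.24 ± 0.7, adjusted p = 0.132), although its libraries did not overlap and the same value passed with all 8 groups in one fit (adjusted p = 0.0183).

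Across the 27 libraries, levels of DLL1 and DLL3 had a Pearson r of 0.811 on the log2 CPM scale, DLL3 and HES5 of 0.804, and NOTCH2 and NOTCH3 of 0.779, whereas HES1 and DLL1 had -0.278 and NOTCH1 and HEY2 -0.589. The libraries fall into 8 groups, so these values describe differences between groups more than between single libraries. Among the 11896 genes whose mean log2 CPM reached 1, the pattern most like NOTCH2 was that of TRIL (r = 0.969) and COL11A1 (0.965), and most like NOTCH3 that of ATP7A (0.962) and RELA (0.96). The closest to NOTCH1 were GPSM1 (0.923) and KMT2A (0.915), to DLL1 SNAPC3 and KIF27 (0.935 each), to DLL3 CHRNB2 (0.919) and TTYH1 (0.915), and to HES5 TERF2IP (0.943) and ROBO3 (0.941). JAG1 was closest to CSF1 (0.899) and TGFB2 (0.897), HES1 to JUP (0.922) and SULF2 (0.879), HEY2 to ERBB3 (0.911) and TBC1D4 (0.898), and HEY1 to MPZL2 (0.782) and BBS7 (0.754).

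A list of 49 other genes of the pathway shows what surrounded the members. In E-NHSM cells 1 of the 44 list genes tested was higher and 8 lower, against 11.1% and 15.1% of all genes. TL-CDK8i cells had 15 higher and 10 lower of 45 (22.3% and 23.8% of all genes), TL2i 17 and 8 of 45 (25.6% and 25.2%), and NHSM-v 23 and 6 of 45 (28% and 30.6%). In 4i/L/b cells 20 were higher and 8 lower of 46 (26.6% and 29% of all genes), in t2iLGöY 18 and 9 of 46 (27.1% and 27.2%), and in LCDM (EPS) 21 and 9 of 46 (28.2% and 28.9%). More list genes were higher than lower in every protocol but E-NHSM, and in those 6 protocols the shares of all genes called in the 2 directions were close to each other. The counts are a description, and DLL4 and MFNG, at or near 0 in primed cells, entered them only where they were high. The median log2 fold change of the list genes tested was -0.05 in E-NHSM and 0.25 to 0.58 in the other protocols.

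Among the other receptors and ligands, DLK1 and DNER, transmembrane proteins related to the Delta ligands, rose in all protocols but E-NHSM. DLK1 averaged 1.35 ± 0.999 CPM in primed (SD, n = 6) and 175 ± 16.2 CPM in t2iLGöY libraries (SD, n = 3, 7.21 ± 0.36, adjusted p = 4.3e-10), and DNER from 1.45 ± 1.22 to 117 ± 6.5 CPM there (6.27 ± 0.43, adjusted p = 1.3e-08). DLL4, the Delta ligand of arteries, had 0 counts in all primed libraries and 40 to 57 counts in t2iLGöY libraries and 16 to 34 in LCDM (EPS) libraries, and in the other protocols, with 0 to 23 counts, it could not be tested. NOTCH4, the endothelial receptor, averaged 3.59 CPM in primed cells and 0.723 to 4.8 CPM in the protocols, and was lower in NHSM-v (-2.32 ± 0.82, adjusted p = 0.0247). In the other 6 protocols its values of -1.25 to 0.45 did not pass the test.

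Of 7 genes of the proteases that cut the receptor, ADAM17 was higher in 6 protocols (0.39 to 1.35) and ADAM10 was lower in 5 (-0.98 to -0.51) and higher in NHSM-v (0.42 ± 0.1, adjusted p = 0.0018). The gamma-secretase subunits PSEN2, PSENEN, APH1A, APH1B, and NCSTN stayed between -1.19 and 1.29 and each passed the test in at most 3 protocols. Of the glycosyltransferases that tune ligand choice, MFNG averaged 0.023 CPM in primed cells, 3.52 CPM in 4i/L/b, 2.13 CPM in t2iLGöY, and 1.81 CPM in LCDM (EPS). It passed the count filter only through these 3 protocols, and in the others, untested, it averaged 0.806 to 1.25 CPM.

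Among 12 genes of endocytosis and ubiquitin ligation, the Deltex ligases moved apart. DTX2 was lower in all 7 protocols, from 102 ± 9.44 CPM in primed cells to 54.1 ± 8.39 CPM in E-NHSM (-0.92 ± 0.13, adjusted p = 2.7e-05) and 7.13 ± 1.3 CPM in LCDM (EPS) (-3.83 ± 0.16, adjusted p = 1.5e-10). DTX4 was higher in 6, from 10.8 ± 2.15 CPM to between 65.6 and 240 CPM. MIB1, the ligase that activates ligands for signaling, was higher in 6 protocols, with its largest value in LCDM (EPS) (2.02 ± 0.12, adjusted p = 5.1e-09), and NUMB, an inhibitor of the receptor, was lower in 6 (-0.61 to -0.32).

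RBPJ, the DNA-binding partner of all 4 receptors, moved little. It averaged 180 ± 12.2 CPM in primed cells and 133 to 201 CPM in the protocols, and was lower in TL-CDK8i (-0.24 ± 0.09, adjusted p = 0.0384), TL2i (-0.42 ± 0.09, adjusted p = 0.0012), and 4i/L/b (-0.48 ± 0.09, adjusted p = 0.00036). BEND6, a corepressor that binds RBPJ in neurons, was higher in 4i/L/b (2.17 ± 0.6, adjusted p = 0.0071). In TL-CDK8i its 3 libraries, at 4.59 to 7.64 CPM, also lay above the highest primed one, at 3.78 CPM, and the value narrowly missed the test (1.65 ± 0.66, adjusted p = 0.0548).

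HES3, a family member best known from neural stem cells, was lower in all 7 protocols. It averaged 10.8 ± 5.12 CPM in primed cells, 1.62 ± 1.06 CPM in E-NHSM (-2.75 ± 0.59, adjusted p = 0.0018), and at most 0.564 CPM in the other protocols, with 0 counts in all 4i/L/b and t2iLGöY libraries. Outside E-NHSM, HES3 passed the filter on low counts only through the primed libraries. NRARP, a target that limits Notch signaling, was higher in LCDM (EPS), the group with the most HES5, at 13.9 ± 0.311 CPM (SD, n = 3) against 1.95 ± 1.41 CPM (SD, n = 6; 2.82 ± 0.64, adjusted p = 0.0018). In t2iLGöY, second for HES5, its libraries, at 4.09 to 9.46 CPM, lay above the highest primed one, at 4.02 CPM, and the value did not pass the test (1.64 ± 0.85, adjusted p = 0.119). HES6, which opposes HES1 and is a mark of cells turning into neurons, was picked out after its values were seen. It rose from 2.13 ± 2.28 CPM to 145 ± 1.69 CPM in LCDM (EPS) (6.26 ± 0.52, adjusted p = 1.8e-07), and was also higher in TL2i, NHSM-v, 4i/L/b, and t2iLGöY cells (2.3 to 4.56).

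**Figure D5:**
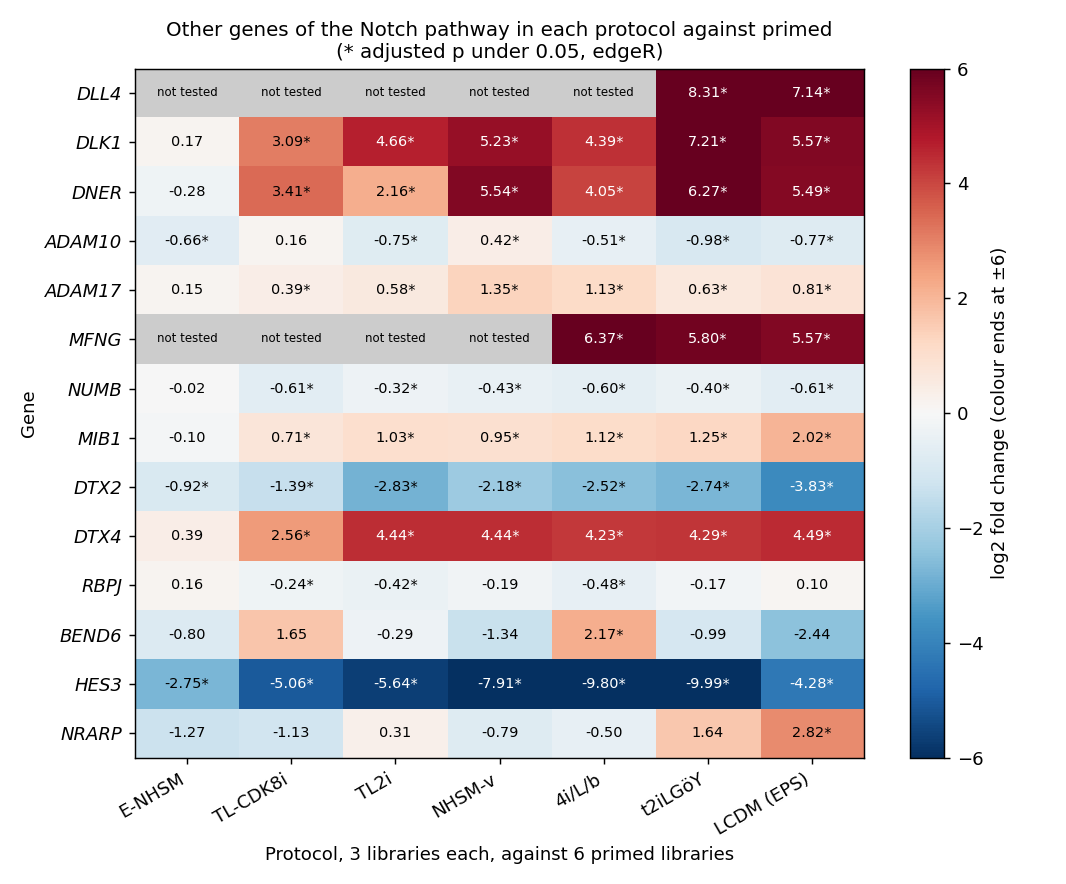
Log2 fold change of 14 other genes of the pathway (rows) in each protocol (columns, 3 libraries) against 6 primed libraries, with an asterisk where the adjusted p was under 0.05 and grey where the gene was not tested. DTX2 and HES3 are lowered in all 7 columns, and DLK1, DNER, MIB1, and DTX4 are raised in all but that of E-NHSM.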

How the data were processed

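Gene expression was measured by directional mRNA sequencing in 27 libraries of rhesus ESCs. The authors deposited raw read counts per gene symbol, 1 column per library, without normalization or pooling. The submitters' processing notes name bcl2fastq, cutadapt, HISAT2, and HTSeq, and the genome build, the annotation, and the strand setting of the counting are not given in the sources used here, so reads shared between similar or overlapping genes could not be examined. Columns were matched to samples by name, those of primed cells to the group only, since their letters J and K match no label, and 0 value columns went unused. No sequences, gene lengths, or coordinates were used, so levels are not compared between genes.

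CPM used TMM factors over the genes kept in all 27 libraries, and log2 CPM a prior count of 2. Only the libraries of the groups compared entered a fit, made with edgeR 4.0.16 in R 4.3.3 (filterByExpr, quasi-likelihood F test, no block). Standard errors (SE) are the fold change divided by the square root of F. Same-group libraries differed by more than sampling noise in all 36 pairs, with a chi-square per gene of 3.98 to 29.8. The procedure was tested on simulated data. The members, the pathway list, and the marker lists were chosen with earlier results of these data known. Individual genes are all 10 members, the gene of each pathway role with the largest median absolute fold change, those called in 1 direction in 6 or more protocols, RBPJ, NRARP, and the 2 genes most correlated with each member. Of the lists, 2 genes are not reported here and entered no sum or count. NOTCH4, the gamma-secretase subunits, and HES6 are named beyond this rule, after their values were seen. The alternatives were DESeq2 1.42.0, upper-quartile normalization, no filter, a filter of 10 or more counts in each library, calls restricted to changes of 1 or more (log2), a joint fit of the 8 groups, the replicate number as a block, the primed libraries of each letter alone, and each library left out.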

Additional observations from a re-analysis of the deposited data

Results flagged for a closer look

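One value of the members stood far from its group. Among the 6 primed libraries, HEY1 was at 13 CPM in library J3 and at 2.14 CPM in the nearest other library, a gap of 0.911 of the whole range of the group, above Dixon's critical value at the 95% level. Both ends of each of the members were examined in this way, except for HES5, which was at 0 in all primed libraries. Chance flags about 1 in 20 groups. The groups of 3 libraries were not examined. J3 also had the lowest NOTCH1 and NOTCH2 and the highest HEY2 of the primed libraries, at 110, 101, and 9.86 CPM, and the log2 fold changes of HEY1 without it stand beside those with it in the report.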

How the results depend on the processing

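Of 61 member calls over the 9 pairwise comparisons, 55 were kept, apart from the minimum fold change, under every alternative in which they could be tested (16 calls could not be with at least 10 counts in every library), and no called value changed sign under any. The 6 that were lost under at least 1 are NOTCH1 and JAG1 in TL2i, NOTCH2 and HEY2 in E-NHSM, DLL1 in TL-CDK8i, and HES1 in NHSM-v, all against primed cells. Some of the 61 calls passed the filter on low counts only through the group where the gene was high, and they add no weight to these counts. They are HES5 in t2iLGöY and LCDM (EPS), DLL1 in TL-CDK8i and NHSM-v, and HEY2 in NHSM-v and LCDM (EPS), against primed cells. HEY2 between NHSM-v and E-NHSM is another. When calls also needed a change of 1 or more (log2), the members called fell to 3 in E-NHSM, 3 in TL-CDK8i, and 4 in TL2i cells against primed cells and to 5 between TL-CDK8i and TL2i. They also fell to 5 in NHSM-v, 6 in t2iLGöY, and 7 in LCDM (EPS) cells, and stayed at 6 in 4i/L/b cells and between NHSM-v and E-NHSM. With at least 10 counts in every library, 5 were called in LCDM (EPS) cells, since only 6 members could then be tested. In the other protocols against primed cells, 4 or 5 of the 6 or 7 members tested were then called. Leaving out each library in turn changed no count of members called by more than 1.5 times.

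Values that missed the test changed sign under some alternatives, and the cause was not tested. HEY1 in E-NHSM went from -0.45 to 0.51 with the K libraries alone, HEY1 in NHSM-v from -0.9 to 0.06 with them, and with the J libraries alone HEY1 became -0.45 in TL-CDK8i and -0.04 in TL2i and JAG1 in E-NHSM 0.22. With 1 library left out, HEY1 ranged from -0.63 to 0.72 in E-NHSM, from -0.17 to 1.26 in TL-CDK8i, and from -1.27 to 0.27 in NHSM-v, DLL3 from -0.09 to 0.6 in TL-CDK8i and from -0.86 to 0.03 in NHSM-v, HEY2 from -0.38 to 0.06 in TL-CDK8i, HES1 from -0.02 to 0.1 in TL2i, and DLL1 between NHSM-v and E-NHSM from -0.03 to 0.33.

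The replicate numbers of the columns do not pair the samples: deviations of same-numbered libraries had correlations of -0.127 to 0.0174, over 0.1 for every pair in 0 of 9 comparisons. With the number as a block, the members called were 6 in E-NHSM, 4 in TL-CDK8i, 6 in TL2i, 7 in NHSM-v, 6 in 4i/L/b, 7 in t2iLGöY, and 9 in LCDM (EPS) cells, and HEY1 in E-NHSM was 0.09. The calls that did not pass with the block were NOTCH1 in TL2i (0.32, adjusted p = 0.0562) and DLL1 in TL-CDK8i (2.07, adjusted p = 0.0915). The depth limits HES5, for which 3 counts correspond to 0.141 to 0.429 CPM.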
